A study of Mus musculus with 62 samples.

Results

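Acute phase proteins are plasma proteins that are known to be released within hours of infection, injury or a growing tumor, and the liver is their best known source. Interleukin-6 and its relatives act through gp130, JAK kinases and STAT3, interleukin-1 and tumor necrosis factor act through NF-kB and C/EBP factors, and both routes switch on the genes of these proteins. Several of the genes are also known to be read outside the liver, in fat, epithelium, myeloid cells and muscle. The 10 genes described here are a list drawn up by what their proteins do: the serum amyloid A genes Saa1, Saa2 and Saa3, haptoglobin (Hp), lipocalin 2 (Lcn2), the orosomucoids Orm1 and Orm2, the lipopolysaccharide binding protein (Lbp), the inter-alpha-trypsin inhibitor heavy chain Itih4, and serum amyloid P (Apcs). They are 10 of the 23900 genes above 0 in any sample, and all 10 passed the filter on low values. This list and the pathway and marker lists below were chosen with earlier results of these data known. Counts of their called genes are therefore a description and no independent test. Albumin (Alb), the most abundant liver transcript, is given beside them as a measure of liver RNA in each sample.

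The samples were diaphragm muscles of 62 female mice, 1 RNA library per mouse, studied to follow muscle during tumor wasting. The animals were 2 months old and received cachectic melanoma cells, non-cachectic melanoma cells or a mock injection (control), and were taken 2, 4, 6 or 8 weeks later. Each group had 5 mice at each week, apart from the cachectic group at 8 weeks, which had 7. The sample labels give the strain C57BL6/J, whereas the text on the design names athymic NCI Ath/nude mice, which have no T cells from a thymus, and the tumors were grafts of human cells. The measurement was of bulk RNA from the muscle portion of the diaphragm. It shows neither protein nor the cell that holds the RNA, and fewer cells of a type and less RNA per cell cannot be told apart.

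Levels are in TPM, transcripts per 1000000 transcripts of a library with gene length taken into account, so that levels of different genes can be set side by side. A gene was called when the limma test of log2(TPM + 1) gave an adjusted p under 0.05, adjusted over the 13578 genes tested, and the log2 fold change was beyond 1 up or down. Within a week, the cachectic and the non-cachectic mice were compared with the same controls, so these comparisons share mice. The tissue label was checked with 8 skeletal muscle genes, which were above 0 in every mouse. Their summed level at 8 weeks had a lowest, median and highest value of 50419, 58311 and 62976 TPM in control mice, with alpha-actin (Acta1) the most abundant. In 4 libraries fewer genes were above 0 than in all others: 15069 and 16389 in cachectic replicates 3 and 4 of week 2, 15493 in non-cachectic replicate 5 of week 2, and 15263 in cachectic replicate 3 of week 8. The other 58 libraries had 17909 to 19057. In the same order, mitochondrial genes made up 56.0%, 61.5%, 54.4% and 57.1% of the TPM of these 4, and at most 50.1% in the others. The share was also lower in most cachectic mice of the late weeks: at 6 weeks it was 34.3% to 44.9% in cachectic mice, each below every control (44.9% to 47.9%), and at 8 weeks 32.5% to 41.6% in 6 of 7 cachectic mice beside 40.9% to 49.3% in controls. The 8 muscle genes summed to 39368, 22750, 26707 and 23953 TPM in the 4, and 5 erythroid genes to 41256 TPM in the last.

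Albumin RNA was spread unevenly over the mice, within every group and week. At 2 weeks the 5 control mice had 1.01, 13369, 33.7, 6551 and 5568 TPM of Alb, the non-cachectic mice had 7.07, 13.5, 0.249, 68.0 and 13.9 TPM, and the cachectic mice had 1540, 6.85, 0.189, 250 and 17.7 TPM. Control replicates 2, 4 and 5 thus stood far above all other mice of that week. At 6 weeks Alb was at 0.564, 0.0854, 165, 1.501 and 42.8 TPM in control mice and at 0.0240, 0.344, 39.7, 0.145 and 2720 TPM in cachectic mice. At 8 weeks the control mice had 0, 77.6, 186, 0.695 and 24.2 TPM, and the 7 cachectic mice had a lowest, median and highest value of 0, 1.11 and 1022 TPM. The groups overlapped at every week except 4 weeks, where the 5 cachectic mice, at 0.534 to 22.0 TPM, lay below the 5 controls, at 29.0 to 911 TPM. Alb was called in none of the comparisons between groups: for cachectic over control mice its log2 fold change was -3.79 at 2 weeks (adjusted p = 0.133), -4.11 at 4 weeks (adjusted p = 0.952), 0.50 at 6 weeks (SE 2.14, adjusted p = 0.922) and -0.45 at 8 weeks (SE 1.98, adjusted p = 0.919). The largest difference was that of non-cachectic over control mice at 2 weeks, -5.55 (adjusted p = 0.178), the only 1 between groups with an unadjusted p under 0.05. With 1 mouse left out, Alb was called lower at 2 weeks in cachectic mice without cachectic replicate 1 (-5.14) or control replicate 1 (-5.78), and in non-cachectic mice without control replicate 1 (-7.55). Array quality weights also called it lower in non-cachectic mice (-9.17). In all, 12 mice had 100 TPM of Alb or more: at 2 weeks 3 control and 2 cachectic mice, at 4 weeks 1 control mouse, at 6 weeks 1 control and 1 cachectic mouse, and at 8 weeks 1 control, 1 non-cachectic and 2 cachectic mice.

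The members differed in how widely they were present. Over the 62 mice the median level was 18.9 TPM for Saa3, 15.4 TPM for Hp, 7.35 TPM for Lbp, 5.81 TPM for Orm1, 3.71 TPM for Lcn2 and 1.57 TPM for Itih4. It was 0.259 TPM for Saa1 and for Orm2, 0.178 TPM for Apcs and 0.0824 TPM for Saa2. The ranges of neighbours in this order overlapped for all 10 genes. Hp, Lcn2 and Lbp were at 1 TPM or more in all 62 mice, and Saa3 and Orm1 in 61. Itih4 reached 1 TPM in 39 mice, Saa1 in 18, Saa2 and Apcs in 12 and Orm2 in 10. Of the mice with at least 1 TPM, the number with under 100 TPM of Alb was 27 of 39 for Itih4, 11 of 18 for Saa1, 5 of 12 for Saa2, 2 of 10 for Orm2 and 1 of 12 for Apcs.

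**Figure D1:**
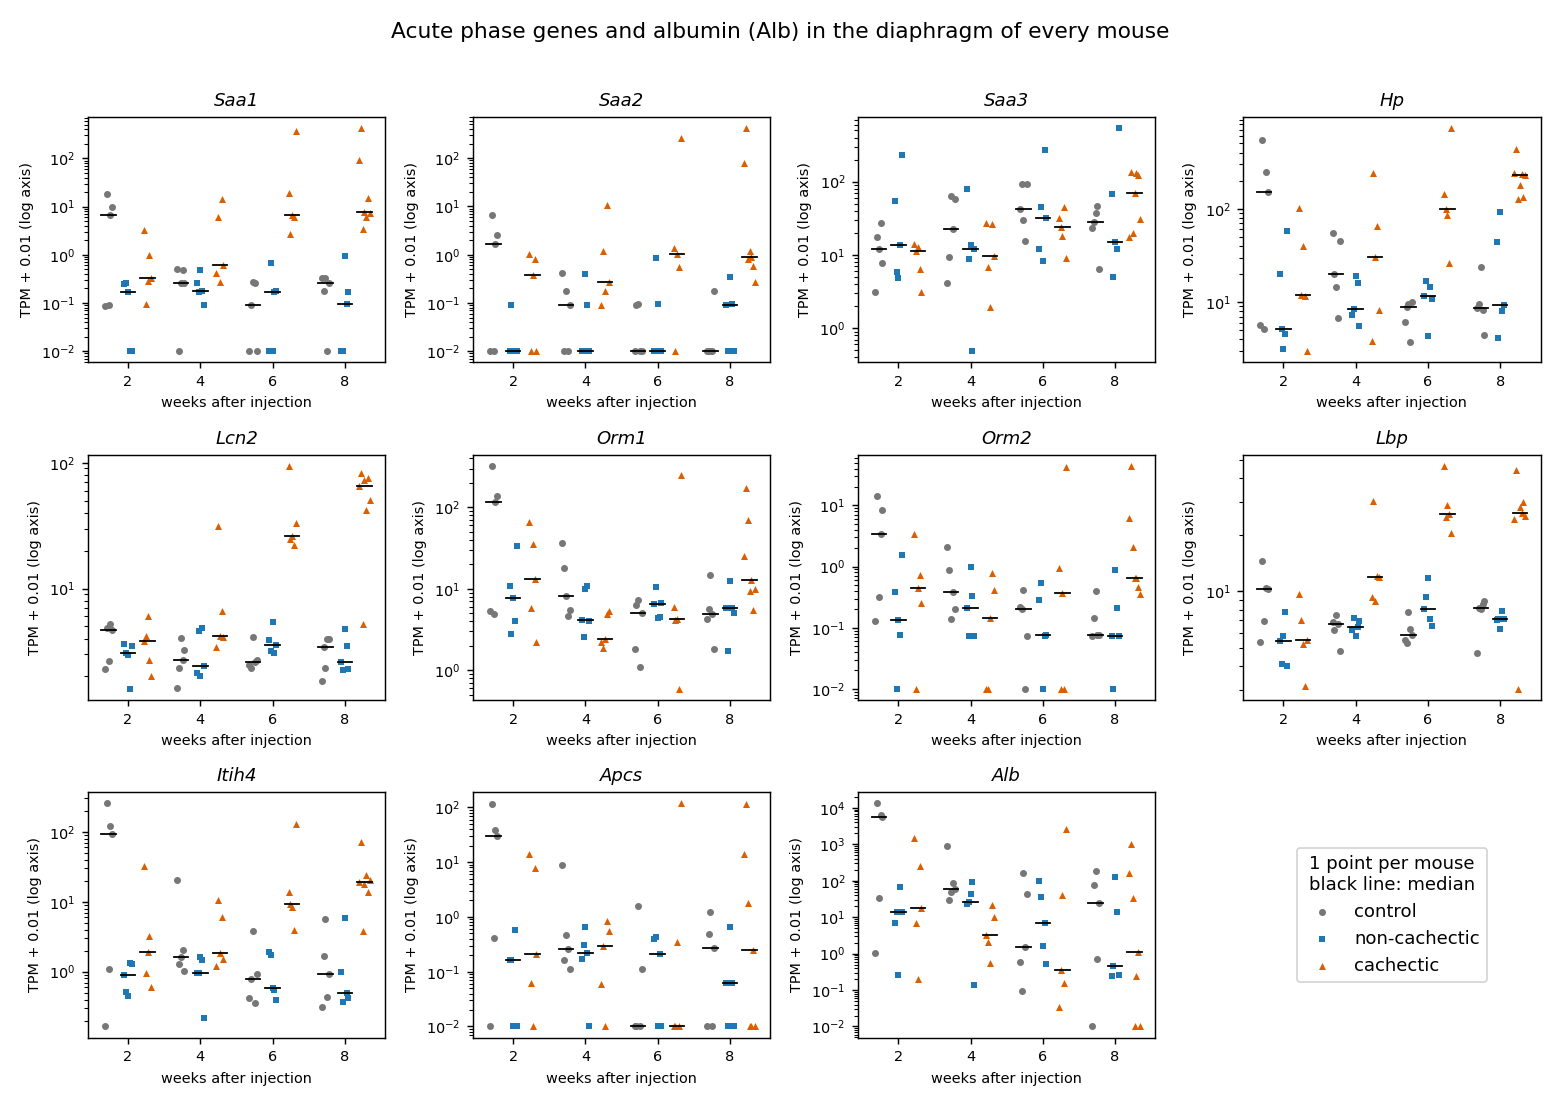
Level of the 10 acute phase genes and of Alb in each of the 62 mice, as TPM + 0.01 on a log axis, against weeks after injection. Each point is a mouse, gray circles are controls, blue squares non-cachectic and orange triangles cachectic mice, and black lines are medians; Lcn2 in the 5 cachectic mice of week 6 ran from 22.0 to 94.6 TPM, above all controls of that week.

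At 6 weeks, 5 of the 10 members rose in cachectic mice against controls, namely Saa1, Hp, Lcn2, Lbp and Itih4, where 1.29% of all genes tested were called higher and 0.228% lower. Against non-cachectic mice the called members were the same 5, beside 1.14% of all genes higher. At 8 weeks, 6 members rose against controls, with Saa2 in addition, beside 1.33% of all genes, and 5 rose against non-cachectic mice, beside 1.16%. No member was called lower at either week. The median log2 fold change of the 10 members over controls was 2.09 at 6 weeks and 2.27 at 8 weeks, and that of all genes tested was 0.17 and -0.094. Scaling the libraries by median ratios moved the median of all genes from 0.169 to 0.00959 at 6 weeks, and from -0.0939 to 0.0127 at 8 weeks. It gave 125 genes higher and 67 lower at 6 weeks in place of 175 and 31, and 252 higher and 163 lower at 8 weeks in place of 181 and 225. Without the 4 libraries with the fewest genes the same 6 members were called over controls at 8 weeks, with values of 4.43 for Saa1, 2.96 for Saa2, 4.44 for Hp and 3.42 for Itih4, beside 314 of all genes higher and 161 lower. Under median-ratio scaling the members called at 6 weeks were the same 5 in both comparisons. At 8 weeks Orm2 joined the 6 called over controls, and Saa2 joined the 5 called over non-cachectic mice. Dunn's test on ranks called 0 of the 13578 genes at 6 weeks against controls and 0 against non-cachectic mice, with an adjusted p of 0.0687 for Saa1, Lcn2 and Lbp against controls, and called 4 and 3 members at 8 weeks, beside 71 of all genes higher and 192 lower against controls, and 35 higher and 98 lower against non-cachectic mice.

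Non-cachectic mice gave no called member at 4, 6 or 8 weeks against controls, where limma called 0% of all genes in either direction. Also at an unadjusted p under 0.05 the count of members was 0 at each of these weeks, beside 68, 100 and 55 of all genes tested, and Dunn's test called 0. The median log2 fold change of the members in non-cachectic mice was -0.45 at 4 weeks, 0.12 at 6 weeks and 0.0087 at 8 weeks, and that of all genes tested was -0.018, 0.027 and -0.020.

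**Figure D2:**
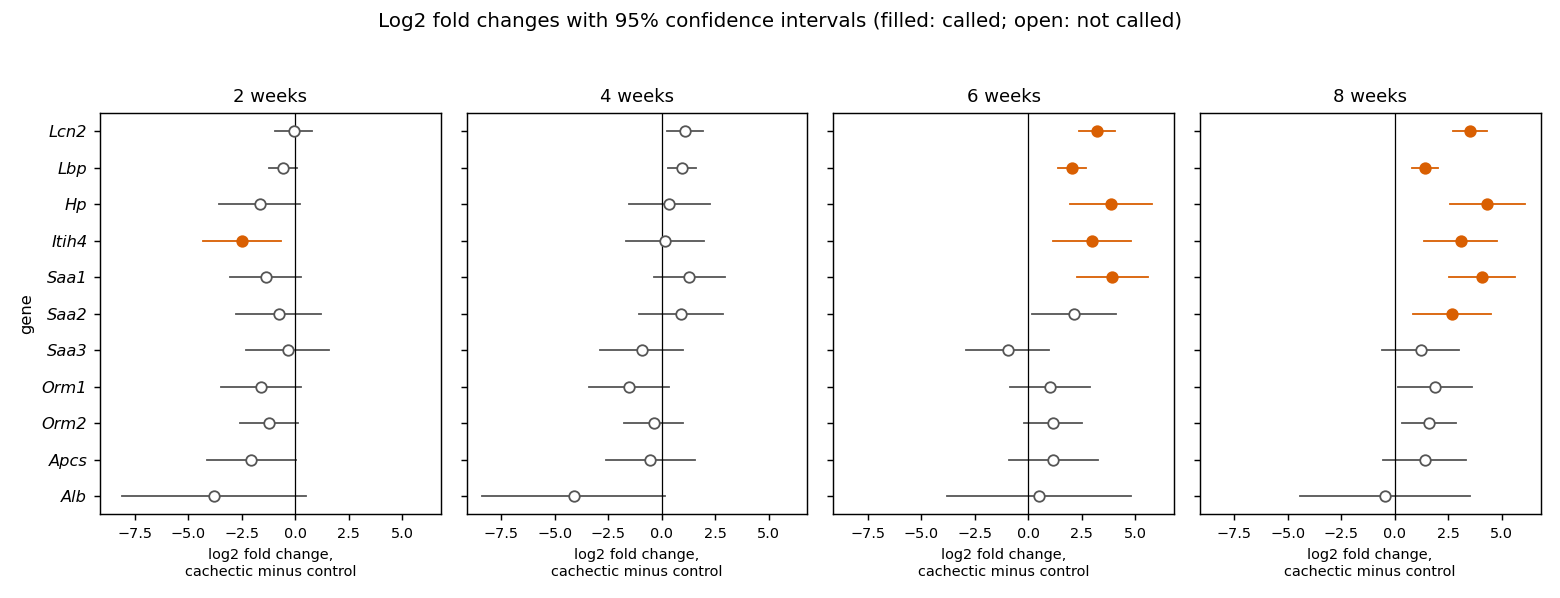
Log2 fold change of log2(TPM + 1) in cachectic minus control mice on the horizontal axis, for the 10 members and Alb, at each week. Points are estimates, bars are 95% confidence intervals from limma, and filled points were called; at 8 weeks Hp had the estimate 4.32 and Alb -0.45.

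Lcn2 binds the iron-carrying siderophores of bacteria and is known from neutrophil granules, epithelium and fat. At 6 weeks Lcn2 was at 2.48, 2.31, 4.10, 2.59 and 2.71 TPM in control mice and at 3.92, 3.20, 5.37, 3.08 and 3.58 TPM in non-cachectic mice. The 5 cachectic mice of week 6 had 94.6, 24.5, 26.1, 22.0 and 33.1 TPM. All 5 lay above every other mouse of that week, and replicate 1 was the highest. The log2 fold change over controls was 3.20 (SE 0.43, 95% confidence interval 2.35 to 4.06, adjusted p = 1.06e-06), and over non-cachectic mice 2.87 (adjusted p = 1.01e-05). At 8 weeks control mice had 1.83, 3.42, 2.33, 4.00 and 3.97 TPM, non-cachectic mice had 2.61, 2.24, 4.72, 3.46 and 2.29 TPM, and the lowest, median and highest of the 7 cachectic mice were 5.19, 65.3 and 83.3 TPM. The groups again did not overlap, but the lowest cachectic mouse was replicate 3, whose library had 15263 genes, and the next lowest had 42.1 TPM. Lcn2 rose by a log2 fold change of 3.52 over controls (SE 0.39, 95% confidence interval 2.73 to 4.31, adjusted p = 6.46e-09) and 3.53 over non-cachectic mice (adjusted p = 6.45e-09). Without the 4 libraries with the fewest genes the value over controls was 4.00.

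At 4 weeks Lcn2 was at 1.62, 2.32, 4.01, 2.68 and 3.26 TPM in control mice and at 3.40, 31.4, 4.19, 6.61 and 4.12 TPM in cachectic mice, so that replicate 2 alone was far above the others. Its log2 fold change of 1.08 was not called (SE 0.43, adjusted p = 0.649). The change of the cachectic minus control difference from 4 to 6 weeks was 2.12 for Lcn2 (adjusted p = 0.555) and was not called, but without cachectic replicate 2 of week 4 it was 2.64 and called, beside 5 of all genes higher. At 2 weeks Lcn2 ranged from 1.58 to 6.04 TPM over the 15 mice, and the groups overlapped.

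Lbp carries bacterial lipopolysaccharide to CD14. At 6 weeks Lbp was at 5.53, 5.30, 7.75, 6.33 and 5.86 TPM in control mice, at 8.02, 9.35, 11.8, 7.10 and 6.55 TPM in non-cachectic mice and at 46.5, 24.9, 28.8, 25.8 and 20.4 TPM in cachectic mice. The lowest cachectic mouse was above the highest of the other 10. The log2 fold change was 2.04 over controls (SE 0.33, 95% confidence interval 1.38 to 2.69, adjusted p = 2.32e-05) and 1.63 over non-cachectic mice (adjusted p = 0.000832). At 8 weeks control mice had 4.72, 8.14, 8.00, 8.55 and 8.92 TPM of Lbp, non-cachectic mice had 7.01, 7.08, 6.32, 7.82 and 7.13 TPM, and the cachectic mice had a lowest, median and highest value of 3.02, 26.0 and 44.0 TPM. Of the 7 cachectic mice, 6 were above every control, and replicate 3, the library with few genes, was below every control. Lbp rose by a log2 fold change of 1.40 over controls (SE 0.30, 95% confidence interval 0.79 to 2.00, adjusted p = 0.000634) and 1.48 over non-cachectic mice (adjusted p = 0.000368). Without the 4 libraries with the fewest genes the value over controls was 1.81. Neither Dunn's test nor a fit with only the groups compared called Lbp at 8 weeks.

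Lbp was also the member whose groups separated at 4 weeks. It was then at 6.83, 6.19, 7.50, 6.72 and 4.80 TPM in control mice, at 6.20, 7.20, 5.79, 6.43 and 6.90 TPM in non-cachectic mice and at 9.33, 30.2, 8.83, 12.1 and 11.9 TPM in cachectic mice. All 5 cachectic mice were above the other 10, yet the log2 fold change of 0.93 was not called (SE 0.33, adjusted p = 0.543). Over the alternatives and each mouse left out the adjusted p ran from 0.00299 to 1.00, the lowest with array quality weights, where the log2 fold change was 0.63. Without the 4 libraries with the fewest genes the adjusted p was 0.0162, and the value of 0.93 was under the limit of 1. No member was called at 4 weeks by limma, against controls (0.0147% of all genes higher) or against non-cachectic mice (0.0295% higher). At an unadjusted p under 0.05 there were 2 members in each comparison, beside 728 and 697 of the 13578 genes, and Dunn's test called 0 of all genes. Between weeks, limma called 0% of all genes and no member for a change of the cachectic minus control difference from 4 to 6 weeks. At an unadjusted p under 0.05 there were 5 members, Saa1, Hp, Lcn2, Lbp and Itih4, beside 506 of the 13578 genes. Array quality weights called the same 5, beside 139 of all genes higher and 17 lower. From 2 to 4 weeks limma called 0 of all genes, and 3 members and 3889 of all genes had an unadjusted p under 0.05. The median change of all genes was 0.453, and 0.0397 after median-ratio scaling. Lbp changed by 1.49 (adjusted p = 0.158). It was called without cachectic replicate 2 of week 2 (1.55, beside 608 of all genes higher and 8 lower) and without control replicate 1 of week 2 (1.66, beside 330 higher and 1 lower). From 6 to 8 weeks limma called no member, 0 members and 580 of all genes had an unadjusted p under 0.05, and Lbp changed by -0.64 (adjusted p = 0.623). Dunn's test has no such difference to test.

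Haptoglobin, the product of Hp, binds free hemoglobin and is also known to be made in fat. At 6 weeks Hp was at 6.06, 8.87, 9.65, 3.74 and 10.02 TPM in control mice and at 11.6, 17.0, 4.31, 14.6 and 10.9 TPM in non-cachectic mice. The cachectic mice had 143, 100.2, 86.3, 26.0 and 730 TPM. All 5 were above the other 10, and the highest, replicate 5, was also the mouse with 2720 TPM of Alb. The log2 fold change was 3.86 over controls (SE 0.95, 95% confidence interval 1.96 to 5.76, adjusted p = 0.00686) and 3.35 over non-cachectic mice (adjusted p = 0.0221). Without cachectic replicate 5 the value over controls was 3.21 and was called. The call over non-cachectic mice was lost without cachectic replicate 1 (3.29), cachectic replicate 5 (2.70) or non-cachectic replicate 3 (3.07), and with the replicate block. Dunn's test called Hp in neither comparison at 6 weeks.

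At 8 weeks Hp was at 8.75, 9.46, 23.6, 8.26 and 4.48 TPM in control mice, at 44.0, 4.13, 92.5, 8.07 and 9.21 TPM in non-cachectic mice, and at 128, 229 and 432 TPM as the lowest, median and highest of the cachectic mice. The lowest cachectic mouse was above all others of that week, and the highest non-cachectic mouse, replicate 3, was the mouse of that group with 129 TPM of Alb. Hp rose by a log2 fold change of 4.32 over controls (SE 0.88, 95% confidence interval 2.56 to 6.08, adjusted p = 0.00031) and 3.53 over non-cachectic mice (adjusted p = 0.00363). The latter was 4.12 without non-cachectic replicate 3, and was not called by Dunn's test. At 4 weeks the cachectic mice were already spread, at 3.87, 242, 30.6, 65.4 and 8.17 TPM, beside 54.9, 20.02, 14.4, 6.81 and 44.7 TPM in controls. The groups overlapped at 4 weeks, and Hp was not called.

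Itih4 is a plasma protein of the inter-alpha-trypsin inhibitor family that kallikrein cleaves. At 6 weeks Itih4 was at 0.414, 0.769, 3.84, 0.348 and 0.919 TPM in control mice, at 1.91, 1.71, 0.582, 0.534 and 0.382 TPM in non-cachectic mice and at 13.7, 9.20, 8.47, 3.91 and 131 TPM in cachectic mice. All 5 cachectic mice were above the other 10, the lowest of them by a small margin over control replicate 3, which had 165 TPM of Alb. The log2 fold change was 2.97 over controls (SE 0.91, 95% confidence interval 1.13 to 4.80, adjusted p = 0.0361) and 3.02 over non-cachectic mice (adjusted p = 0.0354). The call over controls was lost without cachectic replicate 1 (2.99), cachectic replicate 5 (2.20) or control replicates 1 (2.85), 2 (2.93), 4 (2.83) or 5 (2.96). It was also lost without the filter on low values, with the replicate block and by Dunn's test. Over non-cachectic mice it was lost without cachectic replicate 1 (3.04) or 5 (2.25) or non-cachectic replicates 1 (3.17), 2 (3.14), 3 (2.95), 4 (2.94) or 5 (2.90), and in the same alternatives.

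At 8 weeks Itih4 was at 0.306, 1.68, 5.72, 0.429 and 0.907 TPM in control mice, at 0.992, 0.355, 5.88, 0.484 and 0.416 TPM in non-cachectic mice, and at 3.78, 19.2 and 71.1 TPM as the lowest, median and highest of the cachectic mice. Of the 7 cachectic mice, 6 were above all others, and the lowest was replicate 3. Itih4 rose by a log2 fold change of 3.08 over controls (SE 0.85, 95% confidence interval 1.38 to 4.78, adjusted p = 0.00809) and 3.23 over non-cachectic mice (adjusted p = 0.00596). The call over controls at 8 weeks was made under all 12 alternatives other than leaving out a mouse, and without each of the 12 mice compared.

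Saa1 and Saa2 encode the serum amyloid A proteins that travel on high density lipoprotein. At 6 weeks Saa1 was at 0, 0.0824, 0.2603, 0.248 and 0 TPM in control mice and at 0, 0.674, 0, 0.162 and 0.167 TPM in non-cachectic mice. The cachectic mice had 19.0, 2.66, 6.70, 5.95 and 361 TPM. Each of these 5 was above the other 10, and replicate 5, with the high Alb, stood far above the rest. The log2 fold change over controls was 3.93 (SE 0.83, 95% confidence interval 2.27 to 5.60, adjusted p = 0.00148), and 2.83 without cachectic replicate 5, also called. All controls were under 1 TPM, so its size depends on the pseudocount. Over the alternatives and each mouse left out the log2 fold change over controls ran from 2.83 to 6.33. Over non-cachectic mice it was 3.85 (adjusted p = 0.00209), and 2.75 without that mouse. At 8 weeks Saa1 was at 0.319, 0.169, 0.325, 0 and 0.252 TPM in control mice, at 0, 0, 0.935, 0.0854 and 0.162 TPM in non-cachectic mice, and at 3.38, 7.61 and 422 TPM as the lowest, median and highest of the cachectic mice. All 7 were above the other 10, and those over 50 TPM were replicates 1 and 2, with 163 and 1022 TPM of Alb. Saa1 rose by a log2 fold change of 4.06 over controls (SE 0.77, 95% confidence interval 2.52 to 5.61, adjusted p = 0.000118), 3.33 without cachectic replicate 2, and 4.08 over non-cachectic mice (adjusted p = 0.00013), 3.35 without that mouse. Dunn's test did not call Saa1 over controls at 8 weeks. Over the alternatives and each mouse left out the log2 fold change over controls at 8 weeks ran from 2.78 to 6.04.

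Saa2 lies beside Saa1 in the genome. At 6 weeks the cachectic mice had 1.38, 0, 1.01, 0.555 and 257 TPM of Saa2, where no control exceeded 0.0863 TPM and no non-cachectic mouse 0.838 TPM. The cachectic mouse at 0 overlapped both other groups and that at 0.555 TPM the non-cachectic mice, and the log2 fold change of 2.13 was not called (SE 0.98, adjusted p = 0.202). At 8 weeks Saa2 was at 0, 0, 0, 0 and 0.167 TPM in control mice, and the lowest, median and highest of the cachectic mice were 0.267, 0.889 and 420 TPM. All 7 cachectic mice were above the controls and 6 above every non-cachectic mouse, whose highest had 0.338 TPM, but 5 of the 7 were under 1.2 TPM and the others, at 78.1 and 420 TPM, were again replicates 1 and 2. Saa2 rose by a log2 fold change of 2.65 over controls (SE 0.91, 95% confidence interval 0.83 to 4.48, adjusted p = 0.0389), and the value of 2.57 over non-cachectic mice was not called (adjusted p = 0.0513). The call over controls was lost without cachectic replicate 1 (2.05) or 2 (1.65), without control replicates 1, 2, 3 or 4 (2.64 each) or 5 (2.70), and in 4 of the other alternatives: no filter, array quality weights, a fit with only the groups compared, and without the mice with 100 TPM or more of Alb (0.72). The call over non-cachectic mice was gained without cachectic replicate 3 (2.88), 4 (2.83), 5 (2.87), 6 (2.91) or 7 (2.96), and in 7 of the other alternatives.

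At 4 weeks the cachectic mice with the highest Lcn2 and Lbp also had Saa1. Saa1 was then at 0.404, 6.01, 0.258, 14.2 and 0.603 TPM in cachectic mice and at 0.489, 0, 0.246, 0.473 and 0.244 TPM in controls. Replicates 2 and 4 were above the rest, with 2.06 and 22.0 TPM of Alb, the groups overlapped, and Saa1 was not called. Saa2 in the same cachectic mice was at 0.0804, 1.20, 0.171, 10.9 and 0.257 TPM.

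Saa3 is the member of the family best known from macrophages and fat. It was present in every mouse and varied widely in each group: at 6 weeks at 42.4, 93.8, 29.6, 15.4 and 93.2 TPM in control mice, at 11.9, 45.5, 8.26, 268 and 31.8 TPM in non-cachectic mice and at 31.8, 23.9, 18.1, 45.1 and 9.06 TPM in cachectic mice. At 8 weeks the controls had 23.0, 28.0, 36.9, 46.6 and 6.34 TPM, the non-cachectic mice had 68.0, 4.96, 14.96, 12.2 and 538 TPM, and the cachectic mice had a lowest, median and highest value of 17.7, 69.7 and 134 TPM. The groups overlapped at each week, and the highest level of all was in a non-cachectic mouse. Saa3 was called in none of the comparisons, with log2 fold changes over controls of -0.95 at 6 weeks (adjusted p = 0.633) and 1.21 at 8 weeks (adjusted p = 0.418).

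Orosomucoids are small glycoproteins that bind lipids and drugs in plasma. At 6 weeks the cachectic mice had 6.02, 4.16, 4.24, 0.583 and 250 TPM of Orm1, beside 1.10 to 7.27 TPM in control and 4.38 to 10.6 TPM in non-cachectic mice. At 8 weeks they had 5.54, 12.8 and 172 TPM as lowest, median and highest, beside 1.84 to 14.8 TPM in control and 1.73 to 12.3 TPM in non-cachectic mice. Only the mouse with the highest Alb stood apart at 6 weeks, and at 8 weeks 3 of 7 cachectic mice were above every control. Orm1 was not called at 6 weeks (1.02, adjusted p = 0.586) or 8 weeks (1.89, adjusted p = 0.141). Orm2 was at 0.943, 0, 0.360, 0 and 42.2 TPM in cachectic mice at 6 weeks, and its lowest, median and highest values at 8 weeks were 0.351, 0.631 and 44.4 TPM, beside at most 0.382 TPM in controls. At 8 weeks 6 of 7 cachectic mice were above every control, and 3 above every non-cachectic mouse, whose highest had 0.865 TPM; these 3 were at 1 TPM or more. The log2 fold change of Orm2 at 8 weeks was 1.58 (adjusted p = 0.0827), not called, but called without cachectic replicate 7 (1.80) and in 6 other alternatives: pseudocount 0.1, median-ratio scaling, quantile normalization, the replicate block, Alb as a covariate, and without the 4 mice with the highest Alb. The last 2 of these alternatives also called Orm1 at 8 weeks. Over non-cachectic mice Orm2 (1.49, adjusted p = 0.114) was called after quantile normalization, with Alb as a covariate and without those 4 mice, and Orm1 (1.86, adjusted p = 0.16) without them.

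Apcs encodes a pentraxin that binds amyloid and is the major acute phase pentraxin of the mouse. At 6 weeks the cachectic mice had 0, 0, 0.344, 0 and 118 TPM of Apcs, and the control mice had 0, 0, 1.57, 0 and 0.0997 TPM. At 8 weeks the cachectic mice had a lowest, median and highest value of 0, 0.239 and 117 TPM, and the highest control had 1.22 TPM. The mice that held the most Apcs in their group were those with the most Alb: cachectic replicate 5 and control replicate 3 at 6 weeks, and cachectic replicate 2 and control replicate 3 at 8 weeks. Apcs was not called over controls at 6 weeks (1.16, adjusted p = 0.576) or 8 weeks (1.39, adjusted p = 0.379), other than with Alb as a covariate at 8 weeks.

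To set the members beside liver RNA, the mice of weeks 6 and 8 with under 2 TPM of Alb were looked at on their own. They were 5 of 10 control, 5 of 10 non-cachectic and 7 of 12 cachectic mice. The limit of 2 TPM was not part of the planned tests. Lcn2 in these mice had a lowest, median and highest value of 1.83, 2.48 and 4.00 TPM in control, 2.24, 2.61 and 5.37 TPM in non-cachectic and 22.0, 50.3 and 94.6 TPM in cachectic mice. Lbp had 4.72, 5.53 and 8.55 TPM, then 6.55, 7.08 and 11.8 TPM, and 24.9, 26.0 and 46.5 TPM in the same order of groups. The cachectic mice lay above the others for both genes, at levels of Alb of 0 to 1.11 TPM. Hp had 3.74, 8.26 and 8.87 TPM in control, 4.13, 9.21 and 44.0 TPM in non-cachectic and 26.0, 143 and 233 TPM in cachectic mice. Itih4 had 0.306, 0.414 and 0.769 TPM in control, 0.355, 0.416 and 0.992 TPM in non-cachectic and 3.91, 13.7 and 24.4 TPM in cachectic mice. Saa1 had at most 0.319 TPM in control and 0.167 TPM in non-cachectic mice, and 2.66, 7.43 and 19.0 TPM in cachectic mice. For Itih4 and Saa1 the groups did not overlap, and for Hp they did through 1 non-cachectic mouse. Apcs was at 0 in all 5 control, 4 of 5 non-cachectic and 6 of 7 cachectic mice of this kind, with a highest value of 0.239 TPM. Orm1 had 0.583, 6.02 and 12.8 TPM in the cachectic mice beside 1.10, 4.24 and 6.39 TPM in the controls, and Saa2 did not exceed 1.38 TPM.

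Several other liver genes were low in the same 7 cachectic mice. Apoa1 was at most 0.423 TPM, Apoa2 0.216 TPM and Ttr 0.102 TPM, and Cyp3a11 was at 0 in 5 of the 7. In 2 genes the cachectic mice lay above the 5 controls: fetuin-A (Ahsg), at 2.53, 4.13 and 7.06 TPM beside 0.609, 0.920 and 1.39 TPM, and Apoh, at 0.255, 0.409 and 1.90 TPM beside 0.0303, 0.133 and 0.251 TPM. Cyp2e1, the most abundant of the list in these mice and also known from fat, had 11.2, 55.4 and 125 TPM beside 8.91, 21.0 and 53.6 TPM. Over all mice, the 10 liver markers summed to a lowest, median and highest value of 14.0, 55.7 and 374 TPM in controls and 14.4, 65.0 and 5149 TPM in cachectic mice at 6 weeks. At 8 weeks they summed to 16.5, 66.3 and 408 TPM in controls and 52.2, 130 and 2094 TPM in cachectic mice. limma called 0 of the 10 in cachectic against control mice at either week, 0 and 1 had an unadjusted p under 0.05, and their part in the levels of the members was not tested beyond the mice set apart by Alb. Whether Alb and these genes stand for as much liver RNA in cachectic as in control mice was not tested.

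The fit was also made without the 12 mice with 100 TPM or more of Alb, an alternative chosen after seeing the data. Saa1, Hp, Lcn2, Lbp and Itih4 were called in cachectic over control mice at both weeks, beside 224 of all genes higher and 35 lower at 6 weeks, and 138 higher and 151 lower at 8 weeks. Their log2 fold changes without these mice were 2.88, 3.30, 3.32, 2.22 and 2.52 at 6 weeks and 2.78, 4.38, 3.17, 1.19 and 3.08 at 8 weeks. Saa1 was the gene of the 5 that moved most, from 3.93 to 2.88 at 6 weeks and from 4.06 to 2.78 at 8 weeks. At 8 weeks the values for the others were 1.43 for Saa3, 1.60 for Orm1, 0.72 for Saa2, 0.69 for Orm2 and 0.13 for Apcs, none of them called.

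**Figure D3:**
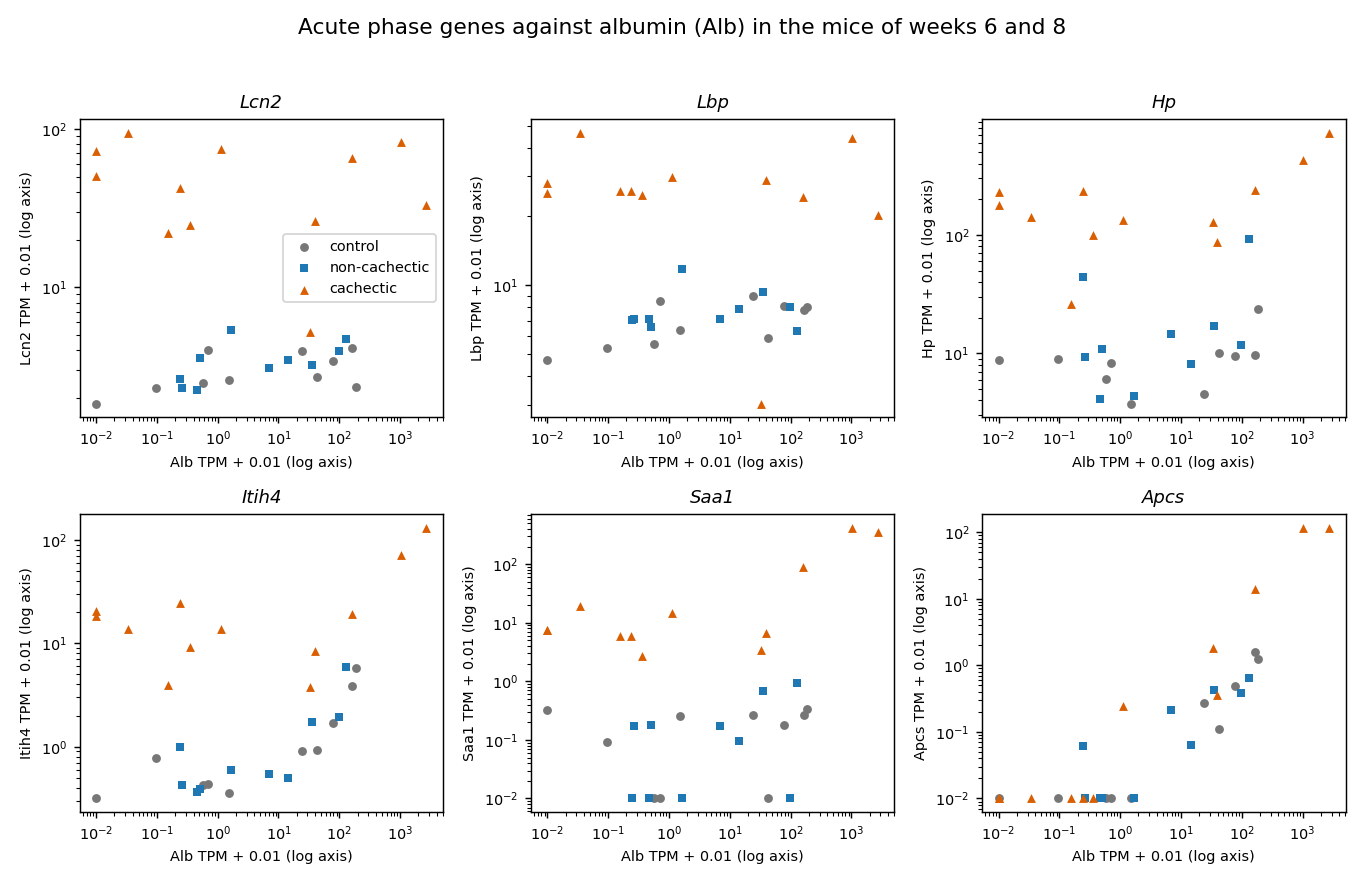
Level of 6 members against the level of Alb in the 32 mice of weeks 6 and 8, both as TPM + 0.01 on log axes. Gray circles are control, blue squares non-cachectic and orange triangles cachectic mice; Lcn2 reached 94.6 TPM in a cachectic mouse with 0.0240 TPM of Alb, and Apcs 118 TPM in the cachectic mouse with 2720 TPM.

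Per 1000 TPM of Alb, the members can be compared among the 12 mice with 100 TPM or more of Alb. The 3 controls of week 2 had 1.33, 1.00 and 1.76 TPM of Saa1 per 1000 TPM of Alb, and the cachectic mice had 133 in replicate 5 of week 6, and 557 and 413 in replicates 1 and 2 of week 8. Among the 12 mice these 3 were the highest, and the next was the non-cachectic mouse of week 8, at 7.23. For Apcs the same controls had 8.77, 5.77 and 5.41, the same cachectic mice 43.5, 86.7 and 114, and cachectic replicates 1 and 4 of week 2 had 9.15 and 30.9. For Hp the values were 40.3, 38.2 and 27.3 in the controls of week 2, and 60.3, 58.6 and 127 in those of weeks 4, 6 and 8. The 3 cachectic mice of weeks 6 and 8 had 268, 1475 and 423, and the non-cachectic mouse of week 8, at 715, lay among them. The 3 cachectic mice did not stand apart in all members. Lbp was at 7.49, 148 and 43.1 in them, beside 47.1 and 43.0 in the controls of weeks 6 and 8 and 48.9 in the non-cachectic mouse. Lcn2 was at 12.2, 400 and 81.5, beside 24.9 in the control of week 6, and Saa3 was highest in controls, at 179 and 198. These ratios are a description and were not tested. They take Alb as a measure of liver RNA in every mouse, and whether liver RNA holds as much Alb in cachectic mice was not tested.

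At 2 weeks the controls rich in Alb were also rich in several members. Itih4 was at 0.155, 256, 1.07, 123 and 92.6 TPM in control mice, at 0.898, 0.497, 0.440, 1.31 and 1.29 TPM in non-cachectic mice and at 32.2, 0.954, 1.90, 3.25 and 0.594 TPM in cachectic mice. Control replicates 2, 4 and 5 were the high ones, and the groups overlapped through control replicates 1 and 3. Apcs in the same control mice was at 0, 117, 0.400, 37.8 and 30.1 TPM, and Saa1 at 0.0768, 17.8, 0.0801, 6.56 and 9.79 TPM. Hp was at 5.73, 539, 5.10, 250 and 152 TPM in the controls, and Orm1 at 5.35, 324, 4.89, 117 and 136 TPM. The same 3 mice led in each of these genes. Itih4 was the member called, lower in cachectic mice (log2 fold change -2.49, adjusted p = 0.0385, beside 4.15% of all genes called lower) and in non-cachectic mice (-3.66, adjusted p = 0.00665, beside 3.26%). Cachectic and non-cachectic mice gave no called member by limma (0% of all genes), none at an unadjusted p under 0.05, and none by Dunn's test.

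The 2 calls of week 2 did not hold without these mice. Without the 4 mice with the highest Alb, 3 of which are the controls named, the log2 fold change of Itih4 in cachectic mice was 1.44, and without the 12 mice with 100 TPM or more it was 0.43, neither called. Both fits keep only control replicates 1 and 3 of week 2, selected by their Alb. A call lost there cannot decide whether the groups differed. The call in cachectic mice was made under none of the 12 alternatives, and was lost without cachectic replicates 3 (-2.36), 4 (-2.49) or 5 (-2.14) or control replicates 2 (-1.63), 4 (-1.89) or 5 (-1.99). In non-cachectic mice it was lost without control replicates 2 (-2.80), 4 (-3.06) or 5 (-3.17), and by Dunn's test, a fit with only the groups compared and the 3 alternatives that take Alb into account. Itih4 moved the other way without cachectic replicate 1 (-3.24) or control replicates 1 (-3.57) or 3 (-3.36), and in non-cachectic mice without control replicates 1 (-4.75) or 3 (-4.54). Further calls came with a mouse left out: Hp (-2.45), Orm1 (-2.31) and Apcs (-2.93) were called lower in cachectic mice without control replicate 1, and Apcs (-2.81) without control replicate 3. Without cachectic replicate 1 the added calls were Hp (-2.25) and Apcs (-2.66). In non-cachectic mice Hp, Orm1 and Apcs were called lower without control replicate 1 (-3.25, -3.01 and -4.19) or 3 (-3.28, -3.04 and -4.07). Of all genes, 909 were called lower in cachectic mice without control replicate 1, 687 without control replicate 3 and 1280 without cachectic replicate 1. In non-cachectic mice 574 were lower without control replicate 1 and 532 without control replicate 3, in place of 443. The median of all genes at 2 weeks was -0.42 in cachectic mice, -0.0582 after median-ratio scaling, which gave 40 genes higher and 319 lower in place of 2 and 564. Without the 4 libraries with the fewest genes, in the fit with only the groups compared and by Dunn's test, 0 genes were called higher and 0 lower in cachectic mice.

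Other acute phase genes were counted from a list of 21 genes, of which 20 were tested. In cachectic against control mice 6 of the 20 rose at 6 weeks and 5 at 8 weeks, and none fell. Of all genes, 1.29% were called higher and 0.228% lower at 6 weeks, and 1.33% and 1.66% at 8 weeks. The protease inhibitor Serpina3n had a lowest, median and highest value of 5.94, 7.08 and 9.75 TPM in controls and 213, 216 and 590 TPM in cachectic mice at 6 weeks. At 8 weeks it had 4.08, 7.52 and 10.1 TPM in controls and 18.4, 614 and 1062 TPM in cachectic mice. The groups did not overlap at either week, and Serpina3n rose by 5.05 (adjusted p = 1.72e-06) and 5.42 (adjusted p = 2.68e-08) on the log2 scale. The metallothionein Mt2, which binds zinc, rose by 5.11 and 5.21, from a control median of 13.0 TPM to 335 TPM in cachectic mice at 6 weeks. Mt1 (2.78 and 3.34), Serpina3m (2.97 and 3.11) and Lrg1 (1.59 and 1.45) rose at both weeks and ceruloplasmin (Cp, 1.21) at 6 weeks. The fibrinogen genes were in the list and were not called at these weeks. At 2 weeks, where 3 controls were rich in Alb, 10 of the 20 were called lower in cachectic and 14 in non-cachectic mice. Of all genes, 4.15% and 3.26% were called lower in these comparisons. Of 7 liver proteins known to fall in the acute phase, limma called 0 at 6 or 8 weeks, and 0 had an unadjusted p under 0.05. At 2 weeks 3 of the 7 were called lower in cachectic and 5 in non-cachectic mice, beside 4.15% and 3.26% of all genes. In both comparisons of week 2, Dunn's test and the fit with only the groups compared called 0 of all genes. The fits without the 4 mice with the highest Alb, or without those with 100 TPM or more, also called 0. The calls of both lists at 2 weeks were thus lost there. The last 2 fits, however, keep only control replicates 1 and 3 of week 2, selected by their Alb. They therefore cannot decide whether the genes of the lists differed.

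The cytokines known to drive the response were near the floor of the measurement. Of 8 listed, only Il1b passed the filter, and it was not called, with medians at 8 weeks of 0.634 TPM in controls and 1.45 TPM in cachectic mice. Il6 did not exceed 0.307 TPM in any mouse from 4 to 8 weeks, nor oncostatin M (Osm) 0.485 TPM. Of 8 receptors, 3 rose at 6 weeks: the oncostatin M receptor Osmr (1.75), Il1r1 (1.31) and Tnfrsf1a (1.03), and at 8 weeks Osmr (1.33). Of all genes, 1.29% and 1.33% were called higher at these weeks. Osmr at 6 weeks had 3.90, 4.45 and 5.93 TPM in controls and 13.8, 18.0 and 21.8 TPM in cachectic mice as lowest, median and highest.

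Of 15 signal transducers, transcription factors and feedback inhibitors, 14 were tested, and 1, 3 and 2 of them rose at 4, 6 and 8 weeks. Of all genes, 0.0147%, 1.29% and 1.33% were called higher at these weeks. Socs3, which STAT3 induces and which then blocks the kinase, was the gene of week 4. At that week Socs3 had a lowest, median and highest value of 4.02, 5.49 and 6.14 TPM in controls and 17.0, 28.8 and 36.6 TPM in cachectic mice, with no overlap, and rose by 2.16 (adjusted p = 0.00646). The call was lost without cachectic replicate 2 of week 4 and by Dunn's test, where 0 of all genes were called at 4 weeks. Socs3 rose by 2.85 at 6 weeks and 2.17 at 8 weeks. Stat3 rose at 6 weeks (1.31), from 16.8, 17.8 and 21.2 TPM to 36.2, 50.9 and 59.5 TPM, and the C/EBP factor Cebpd rose at 6 (1.71) and 8 weeks (2.37). Of 11 receptors and partners of the acute phase proteins, 2 rose at 6 weeks and 3 at 8 weeks, beside 1.29% and 1.33% of all genes. The partners that rose were the hemoglobin and haptoglobin scavenger receptor Cd163 (1.68 and 1.49), the lipoprotein receptor Scarb1 (1.27 and 1.10) and, at 8 weeks, the heme-degrading enzyme Hmox1 (1.60).

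Markers of other cells that are known to hold these RNAs were summed as well. The 9 neutrophil markers summed to a lowest, median and highest value of 4.00, 11.1 and 12.9 TPM in controls and 16.1, 18.2 and 30.6 TPM in cachectic mice at 6 weeks. At 8 weeks they summed to 4.25, 10.9 and 15.1 TPM in controls and 8.90, 27.7 and 73.7 TPM in cachectic mice, with S100a9 the most abundant. Of the 4 that were tested, 2 rose at 8 weeks, S100a8 (1.33) and Retnlg (1.16), beside 1.33% of all genes. The granule genes Mpo, Elane, Ngp, Camp and Ltf were at 0 in 31, 42, 33, 39 and 26 of the 62 mice, and the highest of any mouse was 2.22 TPM, for Camp. The 6 macrophage markers, led by Lyz2, summed to 272, 388 and 777 TPM in controls and 274, 410 and 608 TPM in cachectic mice at 6 weeks. At 8 weeks they summed to 248, 358 and 541 TPM in controls, 209, 325 and 1256 TPM in non-cachectic mice and 231, 686 and 1088 TPM in cachectic mice, so that the highest mouse was non-cachectic. Of these 6, limma called Mrc1 higher at 6 weeks (1.23) and none at 8 weeks, where 2 had an unadjusted p under 0.05. The 6 adipocyte markers, led by Cfd, summed to 69.0, 169 and 370 TPM in controls and 54.9, 349 and 1002 TPM in cachectic mice at 6 weeks. At 8 weeks they summed to 113, 169 and 640 TPM in controls, 89.0, 237 and 1271 TPM in non-cachectic mice and 274, 577 and 2436 TPM in cachectic mice, the highest in replicate 3, the library with few genes. limma called 0 of them, and 2 had an unadjusted p under 0.05. Of 8 muscle genes, desmin (Des, 1.19) rose at 6 weeks, beside 1.29% of all genes. Of 6 fibroblast genes Col1a1 (-2.12) and Col3a1 (-1.89) fell at 8 weeks, beside 1.66% of all genes. The 6, led by Dcn, summed to 786, 841 and 1135 TPM in controls and 940, 1332 and 1343 TPM in cachectic mice at 6 weeks. At 8 weeks they summed to 601, 1078 and 1167 TPM in controls and 721, 925 and 1800 TPM in cachectic mice. The median of Dcn was 560 TPM in controls and 1006 TPM in cachectic mice at 6 weeks, and 629 and 720 TPM at 8 weeks. The part of these cells in the levels of Lcn2, Hp, Saa3 and the other members was not tested.

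The genes whose level followed each member most closely over the 62 mice differed in part between members. Among the 3 closest genes, Fetub was shared by Saa1, Saa2 and Itih4, Hsd11b1 by Saa1 and Saa2, and Serpina3m by Saa1 and Itih4. Wfdc21 was shared by Hp and Orm2, and Apoc1 by Orm1 and Orm2. By Spearman's rho of log2(TPM + 1), Lcn2 was most like Serpina3n (0.841), and Lbp most like the receptor genes Tnfrsf1a (0.922) and Ltbr (0.904). Itih4 was most like the kininogen gene Kng2 (0.921) and Serpina3m (0.909), and Saa1 most like Fetub (0.806). Saa3 was most like Mcemp1 (0.890) and the integrin Itgb2 (0.836). Hp had its highest values with Wfdc21, Mgst1 and Hacd2 (0.863 each). Orm1 was most like Adtrp (0.876) and Rbp4 (0.871), Orm2 most like Apoc1 (0.794), Saa2 most like Hsd11b1 (0.781), and Apcs most like the liver genes Hpx (0.937), Ambp (0.931) and Fgg (0.925). These values are over mice of all groups and weeks together, and describe likeness only.

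Some members lie side by side. On the GRCm38 assembly Saa3 is at chr7:46711998-46715700, Saa1 at chr7:46740497-46742980, both on the minus strand, and Saa2 at chr7:46751790-46754313 on the plus strand, with Saa4 between Saa3 and Saa1. Orm1 (chr4:63344560-63348163) and Orm2 (chr4:63362449-63365878) flank Orm3 on the plus strand. Among the mice of week 6, Saa4 and Orm3 were highest in the cachectic mouse with 2720 TPM of Alb, at 30.7 and 11.4 TPM. Saa4 reached 40.1 TPM in a control mouse of week 2. Hp is at chr8:109575128-109579172, Lcn2 at chr2:32384633-32388252, Lbp at chr2:158306493-158332852, Itih4 at chr14:30886476-30902353 and Apcs at chr1:172893961-172895041. Of the stretches of 100 bases in Saa1, 9.8% also occur in Saa2, and 6.95% of those in Orm1 also occur in Orm2. A read within such a stretch matches both genes, though its mate may not. How such reads were counted is not given, and their part in the levels was not tested.

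Promoter windows of 250 bases were searched for motifs of the factors named above, and were read from RefSeq (build GRCm38.p6), which held 7 of the 10 members: Saa1, Saa2, Saa3, Lcn2, Orm2, Itih4 and Apcs. The motifs searched, on both strands, were TTNNGNAA for C/EBP, GGG and CC 5 bases apart for NF-kB and TTCNNNGAA for STAT3, which 36.8%, 45.8% and 7.02% of the 32851 promoters in the table hold. The C/EBP letters were in 5 of the 7 windows (Saa1, Saa2, Saa3, Lcn2 and Orm2), the NF-kB letters in 4 (Saa1, Saa2, Lcn2 and Itih4) and the STAT3 letters in 2 (Itih4 and Apcs). In Saa1 TTGCACAA begins at -182 from the end of the window, and TTTCCCAA, at -86, ends just before GGGTGGTGCC, the NF-kB letters. Saa2 has TTGCACAA at -183 and GGGTGGTGCC at -79, Lcn2 has TTGCTCAA at -216 and GGACTACCCC at -102, and Itih4 has TTCCGAGAA at -51 beside 2 matches to NF-kB. The starts in RefSeq differ from those of the positions above for some genes: the Lcn2 window lies inside the Lcn2 gene as given there, and the Saa2 window runs past the start of Saa2. No matches overlap, and a match describes letters, not a bound site. The 4 windows of called members in the table, read 5′ to 3′ on the gene's strand, with the matches in capitals: Saa1 at chr7:46742981-46743230 (minus strand), Saa2 at chr7:46751583-46751832 (plus), Lcn2 at chr2:32387740-32387989 (minus) and Itih4 at chr14:30886226-30886475 (plus), were these.
Saa1: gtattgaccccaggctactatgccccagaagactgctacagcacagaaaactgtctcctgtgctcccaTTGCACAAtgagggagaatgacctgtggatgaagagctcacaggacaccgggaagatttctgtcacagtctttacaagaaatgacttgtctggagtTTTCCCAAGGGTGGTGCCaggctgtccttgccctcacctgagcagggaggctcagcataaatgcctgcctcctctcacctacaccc
Saa2: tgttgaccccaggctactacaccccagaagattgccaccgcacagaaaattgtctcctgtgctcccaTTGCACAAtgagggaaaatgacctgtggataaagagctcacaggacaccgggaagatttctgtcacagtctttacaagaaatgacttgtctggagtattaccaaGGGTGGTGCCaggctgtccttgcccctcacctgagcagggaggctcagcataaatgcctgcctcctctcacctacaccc
Lcn2: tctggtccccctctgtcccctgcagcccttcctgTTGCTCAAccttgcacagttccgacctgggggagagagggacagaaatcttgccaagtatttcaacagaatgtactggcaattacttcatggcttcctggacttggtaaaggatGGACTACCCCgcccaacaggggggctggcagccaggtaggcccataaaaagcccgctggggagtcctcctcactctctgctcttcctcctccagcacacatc
Itih4: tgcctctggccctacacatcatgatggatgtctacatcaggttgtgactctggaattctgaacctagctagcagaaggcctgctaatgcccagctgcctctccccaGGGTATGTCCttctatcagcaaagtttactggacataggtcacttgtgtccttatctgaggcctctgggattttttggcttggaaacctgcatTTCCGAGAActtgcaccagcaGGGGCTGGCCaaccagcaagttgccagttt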

How the data were processed

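RNA of the diaphragms was extracted with Trizol, and the libraries were sequenced on an Illumina NovaSeq instrument; the labels and the paper name different TruSeq kits. The authors aligned the reads to GRCm38 with CLC Genomics Workbench and deposited TPM values, which sum to 1000000 in each library. The number of reads per library is not given, so the depth is unknown, and no interval on counting error can be given. All value columns were mapped to samples (0 were not), and groups, weeks and replicate numbers were taken from the labels.

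A pseudocount of 1 was added before the log2, and a gene was tested if 5 or more mice reached 1 TPM, which held for 13578 of the 23900 above 0 in any mouse. limma (version 3.58.1, R 4.3.3) took the 12 combinations of group and week as means, with a trended prior, and p-values were adjusted by Benjamini and Hochberg over all genes tested, all two-sided; the fit was tested on simulated data. Other steps and figures used Python 3.11.15 and matplotlib 3.10.9. Alternatives were a pseudocount of 0.1, no filter, median-ratio scaling, quantile normalization, weights by array quality, Dunn's test on ranks over all 62 mice, a block of mice with the same replicate number, a fit with only the groups compared, Alb as a covariate, leaving out the 4 mice with the highest Alb, the 4 libraries with the fewest genes, the mice with 100 TPM or more of Alb, and each mouse in turn. Genes named are the members, Alb, genes of the pathway and marker lists, and for each member the 3 tested genes with the highest Spearman's rho. The members and lists were chosen with earlier results of these data known.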

Additional observations from a re-analysis of the deposited data

Results flagged for a closer look

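Within each group and week, the level of each member and of Alb in the highest and the lowest mouse was compared with the rest. Of the 107 sets of mice looked at, 16 had a mouse far from the others. The limit used is meant to flag about 1 in 20 sets of independent, normally spread values, which is 5.35 of 107. The sets share mice and some hold levels near 0, so 5.35 is not the number that chance gives here. In cachectic mice of week 6, replicate 5, the mouse with 2720 TPM of Alb, had 257 TPM of Saa2 (the next highest had 1.38), 42.2 TPM of Orm2 (next 0.943) and 118 TPM of Apcs (next 0.344), and replicate 1 had 94.6 TPM of Lcn2 (next 33.1). In cachectic mice of week 4, replicate 2 had 31.4 TPM of Lcn2 (next 6.61) and 30.2 TPM of Lbp (next 12.1). In cachectic mice of week 8, replicate 3, the library with 15263 genes, was the lowest, with 5.19 TPM of Lcn2 (next lowest 42.1) and 3.02 TPM of Lbp (next lowest 24.2).

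Among controls, replicate 1 of week 4, with 911 TPM of Alb, had 20.5 TPM of Itih4 (next 2.03) and 9.02 TPM of Apcs (next 0.462). Replicate 3 of week 6, with 165 TPM of Alb, had 3.84 TPM of Itih4 (next 0.919), 1.57 TPM of Apcs (next 0.0997) and 4.10 TPM of Lcn2 (next 2.71). Replicate 1 of week 8 was low in Lbp, at 4.72 TPM (next lowest 8.00). Among non-cachectic mice, replicate 3 of week 8, with 129 TPM of Alb, had 5.88 TPM of Itih4 (next 0.992), and replicate 4 of week 2 was low in Lcn2, at 1.58 TPM (next lowest 2.93).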

How the results depend on the processing

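The depth of the libraries is unknown, so what a TPM near 0 allows cannot be stated. Of the counts of members called under the alternatives, 324 stayed within 1.5 times their value and 24 moved further, and with each mouse left out 352 stayed and 20 moved. Most of these counts were 0 in the main fit, and a count that remained 0 was tallied as one that stayed. Of the log2 fold changes of members in cachectic over control mice and of Alb between all groups, 537 kept direction and side of the threshold, 41 changed direction, 24 lost a call and 10 gained one, and with each mouse left out these numbers were 484, 31, 19 and 10. Over all comparisons, leaving out a mouse lost 32 calls of members and gained 21. The replicate block treats mice with the same number in a week as matched: of 60 such pairs 12 were most alike with their own number, and the correlations had a median of -0.0317, so the numbers do not mark pairs. Where not shown by the alternative itself, the cause was not tested.

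Members called higher in cachectic over control mice at 6 weeks numbered 0 by Dunn's test. Over non-cachectic mice at 6 weeks they numbered 3 with the replicate block (137 of all genes higher, 44 lower) and 0 by Dunn's test. At 8 weeks they numbered 3 by Dunn's test (35 higher, 98 lower) and 8 without the 4 mice with the highest Alb (164 higher, 183 lower). For the change from 4 to 6 weeks they numbered 5 with array quality weights (139 of all genes higher, 17 lower). Members called lower at 2 weeks in cachectic mice numbered 0 under each of the 12 alternatives. Of all genes, 1268 were lower with a pseudocount of 0.1, 545 without the filter, 518 with the replicate block and 409 with Alb as a covariate. The number was 319 with median-ratio scaling, 269 with quantile normalization, 147 with array quality weights and 0 in the others. In non-cachectic mice at 2 weeks they numbered 6 with array quality weights, beside 565 of all 13578 genes lower, and 0 by Dunn's test, which called 0 of all genes. They also numbered 0 in the fit with only the groups compared, with Alb as a covariate and in both fits without mice high in Alb. Of all genes, 220 were lower in non-cachectic mice with Alb as a covariate, and 0 in the other fits just named.

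The log2 fold changes in cachectic over control mice at 2 weeks turned positive without the 4 mice with the highest Alb: Saa1 0.68, Saa2 0.46, Saa3 0.38, Hp 1.60, Lcn2 0.39, Orm1 1.30, Orm2 0.47, Itih4 1.44, Apcs 1.23 and Alb 2.14. Without the mice with 100 TPM or more of Alb they were Saa1 0.18, Saa2 0.15, Saa3 0.27, Hp 1.01, Lcn2 0.47, Orm1 0.61 and Itih4 0.43. Control replicates 1 and 3 were the only controls of week 2 kept in both fits. Saa2 was 0.33 with Alb as a covariate, Saa3 was 0.14 and Lcn2 0.37 after median-ratio scaling, and Saa3 was 0.14 and Lcn2 0.50 after quantile normalization. At 2 weeks Alb was -0.96 in cachectic over non-cachectic mice without the mice with 100 TPM or more of Alb, and 0.38 in non-cachectic over control mice in both fits without mice high in Alb.

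At 4 weeks, over controls, Orm2 was 0.60 and Apcs 1.16 with Alb as a covariate, Itih4 was -0.0053 with array quality weights, and Apcs was 0.082 without the mice with 100 TPM or more of Alb. At 6 weeks Orm1 was -0.16 and Apcs -0.19 without the 4 mice with the highest Alb. Alb over controls at 6 weeks was -0.47 with array quality weights, -1.48 without those 4 mice and -0.38 without the mice with 100 TPM or more. Over non-cachectic mice at 6 weeks Alb was -0.82 with a pseudocount of 0.1, -2.06 with array quality weights and -1.85 in both fits without mice high in Alb. At 8 weeks Apcs over controls was -0.16 with array quality weights, Alb over controls was 0.70 with the replicate block, and Alb over non-cachectic mice was -1.33 with array quality weights.

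With each mouse left out in turn, the members called higher over non-cachectic mice at 6 weeks numbered 3 to 5, and those for the change from 2 to 4 and from 4 to 6 weeks 0 to 1 each. Members called lower at 2 weeks numbered 0 to 4 in cachectic and 0 to 4 in non-cachectic mice. Of all genes, the number lower in cachectic mice ran from 6 without control replicate 2 to 1297 without cachectic replicate 2. In non-cachectic mice it ran from 171 without control replicate 2 to 574 without control replicate 1. Log2 fold changes over controls that changed direction ranged from -0.22 to 0.084 for Lcn2 at 2 weeks, and at 4 weeks from -0.39 to 1.02 for Hp, -0.22 to 0.77 for Itih4 and -0.71 to 0.082 for Apcs. At 6 weeks they ranged from -0.16 to 1.67 for Orm1 and -0.19 to 1.53 for Apcs. Alb at 6 weeks ranged from -1.48 to 1.60 in cachectic over control, -1.85 to 0.99 in cachectic over non-cachectic and -0.45 to 1.47 in non-cachectic over control mice. At 8 weeks it ranged from -1.55 to 0.48 over control and -0.12 to 2.13 over non-cachectic mice.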
